A study of Mus musculus with 2 samples.

Results

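Peroxisomes are small organelles bounded by 1 membrane that break down very long, branched and dicarboxylic fatty acids, build ether lipids and bile acids, and oxidise urate, glycolate and some amino acids. The genes described here are 47 that assemble peroxisomes or act inside them, chosen by name from what is known of the organelle and measured in mouse liver after injury of the kidneys. They comprise 13 peroxins, which build the organelle and import its proteins, 27 matrix enzymes, catalase, and 6 membrane proteins. All 47 had a probe set annotated with that gene alone, with 87 probe sets in all, out of 18193 named genes on the array. Of the 47, 44 had a signal at or above the array median on at least 1 of the 2 arrays and 42 on both.

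Liver came from male wild-type C57BL/6 mice aged 8 weeks. In the renal ischaemia-reperfusion group both kidneys were made ischaemic at body temperature for 30 minutes and then reperfused, and the other group had a sham procedure. Livers were harvested 24 hours later, and tissue of 3 mice was pooled for each group and hybridised to 1 Affymetrix array. With 1 array a group there is no replicate error and no test, and every difference below describes these 2 pools.

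Proteins of the peroxisome matrix are made in the cytosol and carry short targeting signals, which the receptors Pex5 and Pex7 recognise. The receptors dock at the membrane, release their cargo inside and are extracted again with the help of ubiquitin and an ATPase. Oxidases inside pass electrons straight to oxygen and so make hydrogen peroxide, which catalase removes. In rodent liver, many genes of fatty acid oxidation in peroxisomes are induced through peroxisome proliferator-activated receptor alpha (PPARA), from which the receptor takes its name.

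Catalase and a set of matrix enzymes had lower signals in the pool after renal ischaemia-reperfusion, whereas the peroxins lay on both sides of 0, mostly within 2-fold. Differences are given as log2(signal + 16) after renal ischaemia-reperfusion minus the same in the sham pool. Of the 44 genes past the filter on dim signals, 12 (27.3%) were at least 2-fold lower and 0 were at least 2-fold higher. Among all 13117 genes past the same filter, 9.59% were lower by that much and 8.71% higher. The 12 were Cat, the matrix enzymes Pecr, Uox, Hao1, Nudt7, Pipox, Nudt12, Agxt and Acaa1b, the membrane proteins Abcd2 and Pxmp2, and the peroxin Pex6. Abcd2 passed the filter through the sham array alone, its signal after renal ischaemia-reperfusion was dim, and its bound is only 1.07-fold lower. Without Abcd2, 11 of 43 genes were at least 2-fold lower. The median difference was -0.38 over the 44 genes, against -0.01 over all genes, and 70.5% of them were below 0, against 50.7% of all genes.

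**Figure D1:**
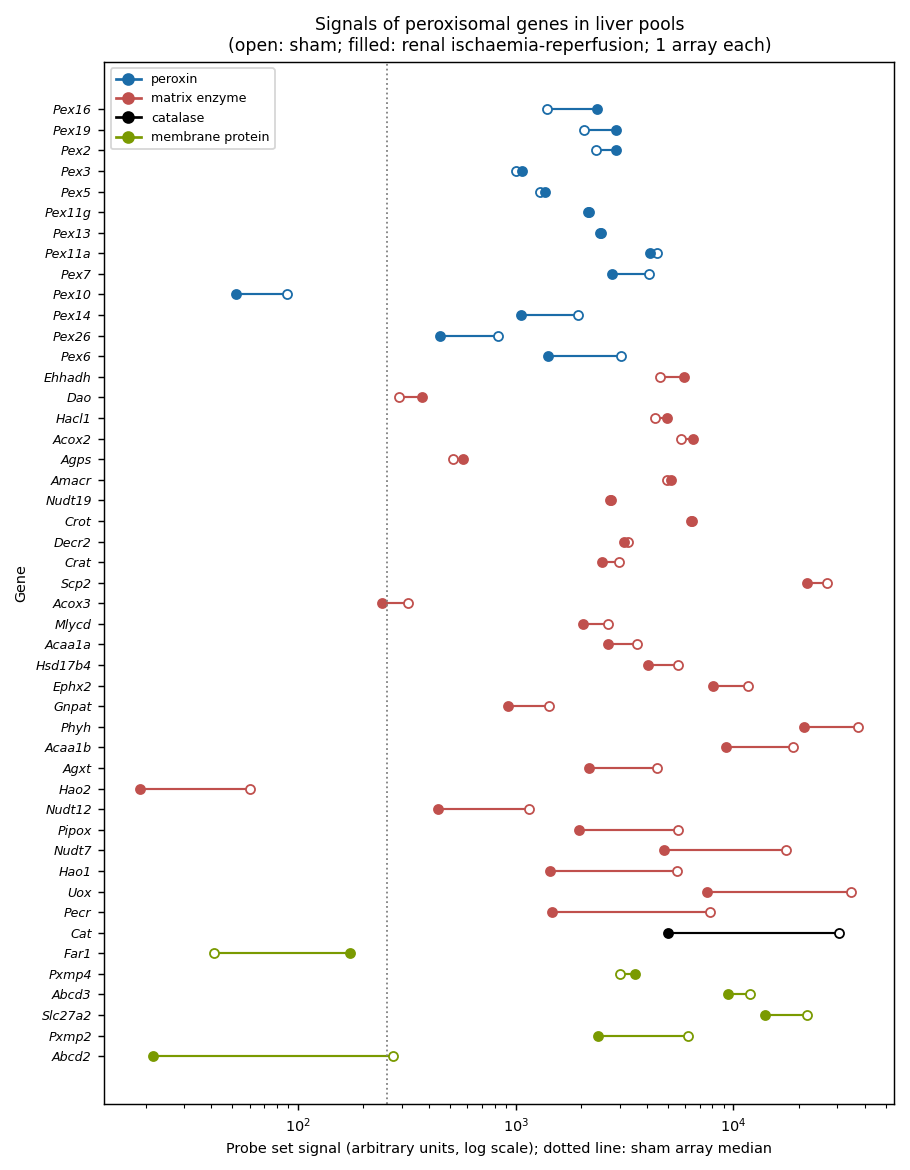
Signal of each of the 47 genes (vertical axis) on a log scale (horizontal axis, arbitrary units) in the sham pool (open circle) and the renal ischaemia-reperfusion pool (filled circle), 1 array each, by the probe set that represents the gene. The dotted line is the sham array median of 257.0, and Cat goes from 30652 to 5004 while Pex13 stays at 2455 and 2438.

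Since 36 of the genes lie above the 75th percentile of mean log2 signal, shares were also set beside those of bright genes. Of these 36, 10 passed 2-fold downwards and 0 upwards, against 11.0% and 8.57% of all 3280 genes that bright. Where neither array had a dim signal, 11 of 42 passed 2-fold downwards and 0 upwards, against 6.17% and 5.14% of all 10923 such genes. Probe sets of the same gene differed from each other with an SD of 0.72 (log2 difference) over the 5028 genes that have several past the filter, and 0.57 over the 18 of the 47 that do. The genes nearest the 2-fold threshold were Acaa1b (-1.01), Agxt (-1.04) and Pex6 (-1.09) inside it and Pex26 and Pex14 (both -0.86) outside it. These genes differ from each other by less than that disagreement between probe sets.

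The classes were compared next, since their members have different tasks. Of 12 peroxins past the filter, 1 was at least 2-fold lower (8.33%), a share near the 9.59% of all genes, and the median was 0.00 with 50.0% below 0. Of 26 matrix enzymes, 8 were at least 2-fold lower (30.8%), with a median of -0.41 and 76.9% below 0. Catalase stood at -2.61, below all 26 matrix enzymes by their representing probe sets. Of the 4 membrane proteins bright on both arrays, 1 was at least 2-fold lower and the median was -0.48, and with Abcd2 it was 2 of 5 and -0.63. Most matrix enzymes, 18 of 26, lay within 2-fold, and the difference between the classes could not be tested. The difference between the medians of peroxins and matrix enzymes was 0.41 and depended on the probe sets. When those with the suffix _x_at, _s_at or _a_at were left out, the peroxins stood at -0.37 and the difference between the medians was 0.16, with 11 peroxins and 20 matrix enzymes left and the latter at -0.53.

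**Figure D2:**
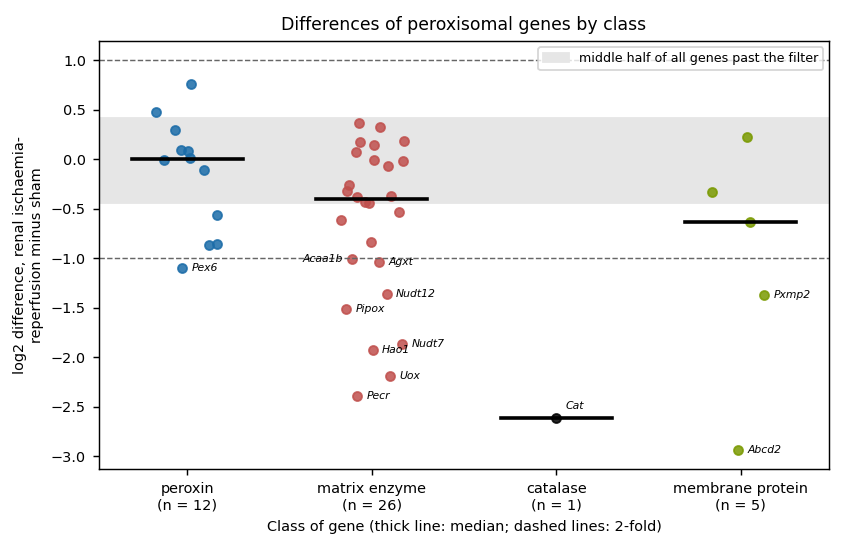
Log2 difference between the renal ischaemia-reperfusion and sham pools (vertical axis) for each gene past the filter, by class (horizontal axis), with the class median as a thick line and 2-fold as dashed lines. The grey band runs between the quartiles of all 13117 genes (-0.45 to 0.42), and genes at least 2-fold lower are named. The peroxin median is 0.00 and the matrix enzyme median -0.41.

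Catalase, which splits hydrogen peroxide into water and oxygen, was measured by 2 probe sets. Its signal was 30652 in the sham pool and 5004 after renal injury, a log2 difference of -2.61 or 6.11-fold lower. The other probe set went from 25102 to 5152 (-2.28), so both were more than 4-fold lower. Across 13 changes of scaling, pseudocount, filter and probe set, the difference of catalase ranged from -2.90 to -2.28.

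Of the oxidases that make hydrogen peroxide, 3 of 6 past the filter were at least 2-fold lower and 0 higher, against 9.59% and 8.71% of all genes. Uox, the urate oxidase that mice have kept and humans have lost, went from 34525 in the sham pool to 7542 (-2.19, 4.57-fold lower). Hao1, which oxidises glycolate to glyoxylate, went from 5511 to 1441 (-1.92, 3.79-fold lower). Pipox, which oxidises pipecolate and sarcosine, went from 5588 to 1947 (-1.51). These 3 are oxidases of purine, hydroxyacid and amino acid breakdown. The branched chain acyl-CoA oxidase Acox2, which also shortens bile acid precursors, was higher by 0.18, with signals of 5742 and 6489. Its relative Acox3 was dim, at 319.6 and 243.0, and lower by at least 1.24-fold. The D-amino acid oxidase Dao was near the array median in both pools (290.9 and 369.7), on a probe set prone to cross-hybridisation. Hao2, a second hydroxyacid oxidase, was under the median in both (60.6 and 18.9), so no fold is given.

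Agxt, the aminotransferase that turns glyoxylate made by Hao1 into glycine, went from 4474 to 2169 (-1.04). With Uox, Hao1 and Pipox it made 4 of 5 enzymes of hydroxyacid, amino acid and purine breakdown past the filter that were at least 2-fold lower (9.59% of all genes were), with a median of -1.51. This was the lowest median among the groups of matrix enzymes with more than 1 gene. Each of these 4 genes has 1 probe set, so no second reading of their signal exists on the array.

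The enzymes grouped under fatty acid oxidation, which include the reductase Pecr, differed among themselves. Pecr, a trans-2-enoyl-CoA reductase of chain elongation and phytol metabolism, had the largest difference, from 7775 to 1471 (-2.39, 5.24-fold lower). Acaa1b, a 3-ketoacyl-CoA thiolase of the last step, went from 18667 to 9254 (-1.01). The near-identical Acaa1a was at -0.43 on a probe set prone to cross-hybridisation, so the 2 thiolases are not safely told apart. The enzymes of the middle steps went different ways. Ehhadh, the L-bifunctional enzyme that PPARA induces, was higher by 0.36, with signals of 4622 and 5956. Hsd17b4, the D-bifunctional enzyme for branched chains and bile acid precursors, was at -0.44, with signals of 5537 and 4064. Its other probe set, prone to cross-hybridisation, went from 4048 to 2026 (-0.99), just short of 2-fold. The thiolase and sterol carrier gene Scp2 was at -0.32, with all 4 probe sets below 0 (-0.68 to -0.32). Amacr, the racemase that prepares branched chains, was at 0.07 and Decr2, a dienoyl-CoA reductase, at -0.07. Over the 10 genes of this group, 2 were at least 2-fold lower, against 9.59% of all genes, and the median was -0.35. Those 2 were Pecr, whose named tasks are not oxidation, and Acaa1b, which lay close to the threshold.

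Alpha-oxidation removes 1 carbon from phytanic acid before the rest can be shortened. Phyh, its hydroxylase, went from 37486 to 21012 (-0.83, 1.78-fold lower). Hacl1, the lyase of the following step, was at 0.19, with signals of 4341 and 4950. Neither differed by 2-fold on the deposited scale. With the hybridisation controls as the reference, Hacl1 was below 0 as well (-0.10) and Phyh was more than 2-fold lower (-1.12). Phyh also passed 2-fold by quantile normalization (-1.24) and with the trend on mean log2 signal removed (-1.11). Ephx2, the soluble epoxide hydrolase, was at -0.53 with signals of 11659 and 8053.

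Among enzymes that handle coenzyme A and carnitine, the nucleotide hydrolases Nudt7 and Nudt12 stood apart from the rest. Nudt7, which cleaves coenzyme A and its esters, went from 17488 to 4790 (-1.86, 3.64-fold lower). All 4 of its probe sets were at least 2-fold lower, from -1.93 to -1.15. Nudt12, which cleaves NADH, went from 1152 to 440.3 (-1.36). Nudt19, a coenzyme A hydrolase that is prominent in mouse kidney, had signals of 2739 and 2723 (-0.01). The carnitine transferases that export shortened chains were also close to 0, with Crot at -0.01 and Crat at -0.26, and the probe sets of Crat differed in sign. The malonyl-CoA decarboxylase Mlycd was at -0.38. Of these 6 enzymes, 2 were at least 2-fold lower and 0 higher, again beside 9.59% and 8.71% of all genes.

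Ether lipid synthesis starts in the peroxisome with Gnpat, an acyltransferase, which was at -0.62 with signals of 1421 and 921.9. Agps, which forms the ether bond, was at 0.14, while its 3 probe sets ranged from -0.59 to 1.98. Far1, the reductase that supplies fatty alcohols, was under the array median with all 5 probe sets. The differences of Agps and Far1 are therefore undecided on these arrays.

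The peroxins are given by their place in the import cycle. The cargo receptor Pex5 was at 0.08 (1290 and 1363), with its other probe set at -0.37, and Pex7, the receptor for the other type of signal, was at -0.57 (4111 and 2773). At the docking complex, Pex13 was at -0.01 (2455 and 2438) and Pex14 at -0.86 (1934 and 1061). Receptors and docking proteins thus included both nearly equal and moderately lower signals. Of the ubiquitin ligase subunits that mark receptors for recycling, Pex2 was at 0.30 by its brighter probe set and -0.12 by the other, and Pex10 was under the array median in both pools (89.4 and 52.0). The ATPase Pex6, which pulls receptors out of the membrane, went from 3039 to 1414 (-1.09, 2.14-fold lower). Its membrane anchor Pex26 was at -0.86, with signals of 827.8 and 448.6. The 5 probe sets of Pex6 were all below 0 but ranged from -2.72 to -0.16. By the second brightest (-0.70) and by the smallest (-0.16) Pex6 would not be 2-fold lower, while the others were past 2-fold.

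The peroxins that insert membrane proteins differed from those of receptor export. Pex16 went from 1386 to 2359 (0.76), Pex19 from 2070 to 2886 (0.48) and Pex3 from 1002 to 1071 (0.10). All 7 probe sets of these 3 genes were above 0, though none was 2-fold higher. With the hybridisation controls as the reference, which lowers every difference by 0.28, the brightest probe sets of Pex16 (0.48) and Pex19 (0.19) were still above 0. The brightest of Pex3 (-0.19) was not. On the deposited scale the other probe set of Pex16 (0.32) exceeds that shift, and the others of Pex19 (0.25 and 0.06) do not. That reference also put the small positive differences of Pex5, Pex11g, Acox2, Amacr, Hacl1, Agps and Pxmp4 below 0. The division factors come last. Pex11a, a PPARA target whose product elongates peroxisomes, had signals of 4449 and 4131 (-0.11), and Pex11g had 2154 and 2167 (0.01) on a probe set prone to cross-hybridisation. Its other probe sets were at -0.45 and -0.17, so the value of Pex11g depends on the probe set.

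**Figure D3:**
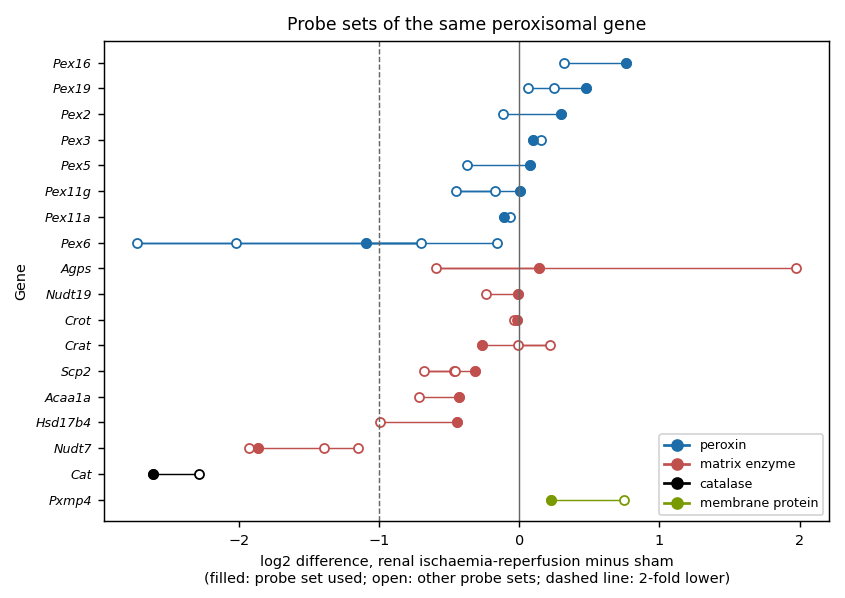
Log2 difference (horizontal axis) of every probe set past the filter for the 18 genes that have several (vertical axis), with the probe set used for the gene filled and the others open, and 2-fold lower as a dashed line. The probe sets had 1 sign for 13 genes and both signs for 5, and those of Cat and Nudt7 all lie below -1.

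The membrane proteins move substrates in or activate them. Pxmp2, a channel-forming protein of the peroxisomal membrane, went from 6202 to 2388 (-1.37, 2.59-fold lower). Slc27a2, an acyl-CoA synthetase and transporter for very long chains, went from 21665 to 13960 (-0.63). The transporter Abcd3, a main protein of liver peroxisome membranes, was at -0.33 (11880 and 9468), and Pxmp4 was at 0.23. Abcd2, a transporter for very long chains, rests on 1 dim probe set. Its signals were 272.4 and 21.7, and its other 3 probe sets were under the median on both arrays.

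A further list of 27 peroxisomal genes was read in the same way, and 20 of them had a probe set. Of the 18 past the filter, 5 were at least 2-fold lower and 0 higher (median -0.40), again against 9.59% lower among all genes. Of the 16 bright on both arrays, 3 were lower and 0 higher (median -0.28), against 6.17% lower among all such genes. The lowest without a dim signal were Acbd5 (-2.77), which tethers peroxisomes to the endoplasmic reticulum, and Idh1 (-1.33), an isocitrate dehydrogenase of cytosol and peroxisome. The other probe set of Acbd5 was at -0.42, and the probe set of Idh1 is prone to cross-hybridisation. The highest were Eci2 (0.56), an enoyl-CoA isomerase, and the fission factor Mff (0.47), also on such a probe set. The receptor transcript Ppara was at -0.31, with all 3 probe sets within 2-fold. Its partner Rxra was at 0.03 by the brightest probe set and 1.05 by another, and the coactivator Ppargc1a at 0.31, with probe sets down to -1.74. Among 12 PPARA targets outside the peroxisome, 2 passed 2-fold downwards and 3 upwards (median -0.05), against 9.59% and 8.71% of all genes. Of the 10 bright on both arrays, 1 passed downwards and 2 upwards, against 6.17% and 5.14% of all such genes. Among those bright on both arrays, the lowest were Cyp4a14 (-2.03) and Acadm (-0.86), and the highest Plin2 (2.70) and Angptl4 (1.00, on a probe set prone to cross-hybridisation). Pdk4, dim in the sham pool (239.7 and 13414), was at least 49.2-fold higher, and is named after its value was seen.

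Markers of cell types were compared, since peroxisomal enzymes are abundant in hepatocytes and in the kidney's proximal tubule. In bulk tissue, fewer cells of a type and less RNA per cell cannot be told apart. The counts of markers stand beside 9.59% of all genes past the filter that were at least 2-fold lower and 8.71% higher. Of 7 hepatocyte markers, 1 was at least 2-fold lower (Cps1, -1.12) and 0 higher, with a median of 0.41. Their signals summed to 243622 in the sham pool and 291734 in the other. Alb, Ttr, Apoa1 and Tat were above 0, whereas 3 of 7 were below 0, with Tdo2 at -0.60 and Hnf4a at -0.06. None of the 4 measured kidney tubule markers differed by 2-fold (all 6 summed to 3127 and 2594), and the organic anion transporter Slc22a6 and Umod were under the median in both pools. Of 4 pancreatic acinar markers, 3 were higher by 2-fold or more, and their signals summed to 2631 and 6829. Of the cholangiocyte markers 3 of 3 past the filter were at least 2-fold higher (summed 653.1 and 2453), and of the neutrophil markers 2 of 4 (2349 and 3982). Cpa1, Ctrb1, Krt19, Epcam, S100a8 and S100a9 passed the filter through the renal ischaemia-reperfusion array alone. Bright on both arrays, only 1 acinar, 1 cholangiocyte and 0 neutrophil markers were at least 2-fold higher. The bound of Krt19 is only 1.93-fold higher, and Krt7 was under the median in both pools (81.3 and 32). Macrophage markers had 0 of 6 past 2-fold (8427 and 6635, median -0.37) and lymphocyte markers 0 of 3 (1113 and 1199, median 0.05). Sinusoidal endothelial markers had 1 lower and 1 higher of 5 (5537 and 6469, median -0.01). Their sum rose mainly through Lyve1 (326.8 and 2740.5), and 3 of 5 were below 0. Stellate cell markers had 1 lower, the dim Lrat, and 1 higher of 5 (6032 and 9351). Their sum rose through Dcn (3967.7 and 8037.4), whereas 4 of 5 were below 0 and the median was -0.42. Both adipocyte markers with a probe set were under the median. The part of these other cell types in the differences of peroxisomal genes was not tested. For RNA quality, the 3'/5' ratio of Actb was 1.38 in the sham and 1.24 in the other pool, and that of Gapdh 0.743 and 0.721.

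The 250 bases before the annotated start were read for 38 of the 47 genes that RefSeq's table for GRCm38.p6 holds. They are shown because the lower genes differed in how much CpG these bases contain. The first 4 belong to the 4 genes with the lowest differences among those in the table (-2.61 for Cat, -2.39 for Pecr, -2.19 for Uox, -1.92 for Hao1), and the next 2 to peroxins with nearly equal signals. Each is written 5′ to 3′ on the strand of the gene. Capitals mark matches, on either strand, to the receptor hexamer AGGTCA, the GC box GGGCGG, the TATA box TATAAA and CCAAT, and in Pex13 the 2 matches to the GC box overlap.
Cat (chr2:103485154-103485403, minus strand): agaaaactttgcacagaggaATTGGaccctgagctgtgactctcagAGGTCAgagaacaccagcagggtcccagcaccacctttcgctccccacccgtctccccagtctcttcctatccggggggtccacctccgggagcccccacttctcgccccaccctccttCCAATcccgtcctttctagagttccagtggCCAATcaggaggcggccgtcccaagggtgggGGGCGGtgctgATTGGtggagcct
Pecr (chr1:72284322-72284571, minus strand): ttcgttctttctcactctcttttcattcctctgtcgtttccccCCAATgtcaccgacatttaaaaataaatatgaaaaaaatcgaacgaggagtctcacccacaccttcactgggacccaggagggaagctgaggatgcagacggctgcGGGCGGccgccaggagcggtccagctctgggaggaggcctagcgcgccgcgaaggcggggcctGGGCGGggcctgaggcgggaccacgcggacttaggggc
Uox (chr3:146596899-146597148, plus strand): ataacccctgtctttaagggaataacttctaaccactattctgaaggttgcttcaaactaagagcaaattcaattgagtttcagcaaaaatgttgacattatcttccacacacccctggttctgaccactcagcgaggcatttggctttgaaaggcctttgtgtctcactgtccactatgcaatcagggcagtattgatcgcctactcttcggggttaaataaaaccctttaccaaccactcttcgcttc
Hao1 (chr2:134554353-134554602, minus strand): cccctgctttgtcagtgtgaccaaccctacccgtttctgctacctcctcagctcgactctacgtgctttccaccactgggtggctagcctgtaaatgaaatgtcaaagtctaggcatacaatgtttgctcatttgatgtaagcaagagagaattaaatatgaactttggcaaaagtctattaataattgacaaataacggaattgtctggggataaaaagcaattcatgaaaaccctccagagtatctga
Pex11a (chr7:79743132-79743381, minus strand): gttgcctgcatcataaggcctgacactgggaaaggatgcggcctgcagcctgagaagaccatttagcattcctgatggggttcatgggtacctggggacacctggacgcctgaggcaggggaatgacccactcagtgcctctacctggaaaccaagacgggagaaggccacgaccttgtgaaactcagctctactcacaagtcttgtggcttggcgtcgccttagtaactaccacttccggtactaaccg
Pex13 (chr11:23665884-23666133, minus strand): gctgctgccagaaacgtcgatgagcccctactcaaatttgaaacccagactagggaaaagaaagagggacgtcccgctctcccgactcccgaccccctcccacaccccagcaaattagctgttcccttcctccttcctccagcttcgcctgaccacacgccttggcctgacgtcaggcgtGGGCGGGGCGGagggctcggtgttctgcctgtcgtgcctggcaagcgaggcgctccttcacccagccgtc

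Of the 12 genes at least 2-fold lower, RefSeq's table holds 9, without Abcd2, Pxmp2 and Nudt12. These 9 had a median of 4.0 CpG dinucleotides in these 250 bases, and the 26 genes within 2-fold that it holds a median of 12.0. Uox and Hao1 had 4 each, Agxt and Acaa1b 2 each and Pipox 3, whereas Pecr had 19, Pex6 18 and Cat 9. Nudt7 had 11 and 14 at its annotated starts. The counts of the lower genes ranged from 2.0 to 19.0 and those of the others from 2.0 to 34.5, so the groups overlap. Among all genes past the filter in the table, the median was 14.0, and it was 11.0 for those at least 2-fold lower. Peroxins had a median of 13.0 and matrix enzymes of 10.0.

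**Figure D4:**
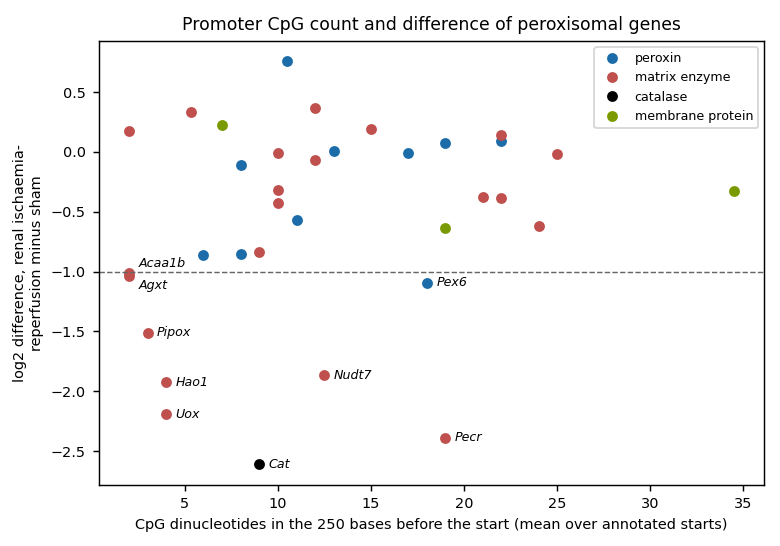
Number of CpG dinucleotides in the 250 bases before the start, averaged over annotated starts (horizontal axis), against the log2 difference between the pools (vertical axis), 1 point a gene, coloured by class, with 2-fold lower as a dashed line. Of the 9 named genes below the line, Uox, Hao1, Agxt, Acaa1b and Pipox have at most 4 CpG, and Pecr has 19.

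The hexamer AGGTCA, which nuclear receptors such as PPARA bind in pairs, stood in the promoters of 5 of the 38 genes (13.2%), against 15.8% of all 27025 genes in the table and 14.2% of those past the filter. They were Cat, Dao, Scp2, Slc27a2 and Pex11g. In Cat it began 204 bases before the start. A pair of hexamers in the same direction with 1 base between them was found in 0 of the 38 genes and in 0.041% of all genes, and no match says only that these letters are not in this window. A GC box stood in 60.5% of the 38 genes, against 35.4% of all genes in the table and 57.9% of those past the filter. CCAAT stood in 42.1%, against 37.5% and 39.2%, with 4 matches in Cat. TATAAA stood in 7.89%, against 14.3% and 9.47%, in Pex14, Pex16 and Pex26 alone among the 38.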

How the data were processed

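Trizol was used on pooled liver, and 6 ug of RNA went into biotin-labelled cRNA for Affymetrix arrays, per the labels' protocols. The deposited values are an intensity per probe set on a linear scale. Both arrays had a mean of 500 after trimming 2% from either end, a common scale set before deposit. Which software summarised the probes: not given in the sources used here. All deposited columns were used, and groups came from the treatment label.

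Of 45037 probe sets that are not controls, 34945 were annotated with 1 gene, 932 with several and 9160 with none, and symbols were updated through Entrez IDs for 34741. Array annotation can be old. Signals were taken as log2(signal + 16). A probe set was kept when its signal was at or above the array median (257.0 sham, 254.1 renal ischaemia-reperfusion) on at least 1 array, and the brightest one by mean log2 signal stood for its gene. For a gene dim on 1 array, a bound on the fold was taken against that array's median. The hybridisation controls, 18 probe sets, were all higher after renal ischaemia-reperfusion, with a median log2 difference of 0.28. Probe sets ending in _x_at or _s_at can cross-hybridise.

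No test was possible with 1 array per group, and the number of arrays limits the precision. All 47 genes were described, and from the other lists the 2 highest and 2 lowest genes bright on both arrays, with Ppara, Rxra and Ppargc1a in any case. Members, lists and settings were chosen with earlier results of these data known. The search for GC box, TATA box, CCAAT and CpG was chosen after the differences were seen. The steps were tested on simulated data. Python 3.11.15, pandas 2.3.3, numpy 2.4.6, scipy 1.17.1 and statsmodels 0.14.6 were used.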

Additional observations from a re-analysis of the deposited data

How the results depend on the processing

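No paired analysis was possible because each group has 1 array. The 15 alternatives changed scaling, pseudocount, filter, dim signals, probe set or threshold. The 11 lower genes other than Cat gave 141 values over the 13 of these that leave the threshold as it is, all below 0 and 138 of them at least 2-fold lower. These genes were picked as lower on the same arrays, so the values show only how far each setting moved them. With the threshold kept at 2-fold, the count of lower genes ranged from 11 to 15, out of the 37 to 47 genes that the setting left. At 3-fold it was 6 of 44, with 4 matrix enzymes and 0 peroxins, and at 1.5-fold it was 17 of 44. At 1.5-fold, 3 of 12 peroxins were lower and 1 of the 44 genes higher. Over all 13117 genes past the filter, 2536 were lower and 2449 higher at 1.5-fold, and 589 and 472 at 3-fold. With the hybridisation controls as the reference, 3 of 12 peroxins were lower, and 2016 of all 13117 genes were lower and 756 higher. Medians by that reference were -0.66 over the 44 genes, -0.29 for peroxins, -0.69 for matrix enzymes and -0.92 for membrane proteins. By quantile normalization, membrane proteins stood at -0.92. Without a filter, 1 of the 47 genes was 2-fold higher, the dim Far1. At the 75th percentile, 797 of the 8145 genes left were lower and 682 higher. With only probe sets whose signals were both at or above the median, 676 and 563 of 10950 were. With dim signals raised to the median, 733 of all 13117 genes were higher and membrane proteins stood at -0.33. Taking for each gene its least different probe set, 0 peroxins were lower. Without the probe sets with a suffix, peroxins stood at -0.37 and 0.16 above the matrix enzymes, with 11 and 20 genes left. The difference of Abcd2 ranged from -3.59 to -0.09. The causes were not tested. A list median was taken as moved at 0.2 or more.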
